A study of Mus musculus with 12 samples.

Results

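The microvillus of the intestinal enterocyte is built from a bundle of actin filaments and from proteins that bundle the filaments, hold the membrane to them and tie neighbouring tips together. Transcripts of 10 genes for such proteins were followed here: Vil1, Pls1, Espn, Eps8, Ezr, Myo1a, Myo7b, Cdhr2, Cdhr5 and Ush1c. They were taken by symbol from the 55487 genes of the count tables, and all 10 were found as 1 row each, expressed in every library and kept by the filter on low counts. The rule that names these genes uses no measured value, but it was set with earlier results of these data known, and Vil1, Pls1, Myo1a, Myo7b, Cdhr2 and Cdhr5 are also among the intestine marker genes that the study listed.

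Microvilli cover the apical face of enterocytes as the brush border, the surface on which digestion and absorption take place. Villin, plastin and espin bundle the actin filaments of the core, Eps8 sits at the tip, and ezrin and myosin 1a connect the core to the membrane around it. The intermicrovillar adhesion complex pairs the protocadherins Cdhr2 and Cdhr5 between the tips of neighbouring microvilli and anchors them inside the cell through Ush1c (harmonin) and the motor Myo7b, and it is known for packing the microvilli into an even array as enterocytes mature along the crypt to villus axis.

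RNA was sequenced from C57BL/6 mice, wild type and untreated with the study's oncology drugs, in 4 groups of 3 libraries. SI tissue and LI tissue were crypts freshly isolated from the small intestine (SI) and the large intestine (LI), with 1 mouse per library. SI monolayers and LI monolayers were crypt-derived epithelium grown on Matrigel for 24 h in control medium with Wnt3a, EGF, Noggin and R-spondin-1, with pooled wells per library. For the first hours after seeding their medium held CHIR-99021, LDN-193189 and Y-27632, an inhibitor of ROCK, a kinase that acts on actin and myosin, and Y-27632 was present while the LI crypts to be seeded were digested. The mice were male or female and 6 to 10 weeks old, the crypts seeded for SI monolayers came from the jejunum, and LI crypts but not SI crypts were released with an enzymatic digestion. The monolayers lack the villus and the lumen of the intestine. All 9 goblet, 7 Paneth and 7 enteroendocrine markers examined were above 3 counts in every library of both monolayers, and so were all 8 mesenchymal markers. A level above 3 counts does not show that a cell type was present. Summed Paneth markers were 66.7 to 88.8 CPM (counts scaled to a common library total) in LI monolayers and 7613 to 8165 CPM in SI monolayers. From staining, the study reports no Paneth cells in LI monolayers and no mesenchymal cells in either. Nothing states from how many animals the pooled wells of each library came, so the spread between monolayer libraries may be partly technical.

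Libraries held 59016196 to 76216530 counts (median 69256790), and the lowest values of the 10 genes in any group, those of Espn in LI monolayers, were 519 to 547 normalized counts. Normalized counts are the authors' counts divided by a DESeq2 size factor per library. Between 73.4% and 77.4% of the counts from 1 to 20 were even numbers, and neither the counting of mates nor the use of strand is stated for these counts. Mitochondrial transcripts took 4.56% to 9.16% of counts in SI tissue, 2.25% to 2.59% in LI tissue and 0.472% to 0.750% in monolayers. SI tissue library 3 stood apart from the other SI tissue libraries. Its summed Paneth markers reached 26870 CPM against 5055 and 9873 in libraries 1 and 2. Its summed enterocyte markers reached 16723 CPM against 23774 and 22137. The 10 genes were at 0.702 to 0.855 times the mean of libraries 1 and 2 there (median 0.738), and every one of them had its lowest tissue value in library 3, in SI and in LI alike. Results that rest on SI tissue are therefore also given without this library where the call differed.

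Positions are those of the GRCm38 build, from gene start to gene end, and reads were counted over the exons. Vil1 lies at chr1:74409376-74435559 on the plus strand, Pls1 at chr9:95752642-95845311 on the minus strand, and Espn at chr4:152120331-152152371 on the minus strand. Eps8 lies at chr6:137477245-137654876, minus strand. Ezr spans chr17:6738041-6782784 on the minus strand and Myo1a spans chr10:127705170-127720940 on the plus strand. Of the adhesion complex, Cdhr2 lies at chr13:54701461-54736662 (plus), Cdhr5 at chr7:141269083-141276786 (minus) and Ush1c at chr7:46195350-46238503 (minus), and the position of Myo7b is not given here. Exons on the opposite strand overlap those of Vil1 by 49 bases (Usp37), of Ezr by 4 bases (Sytl3) and of Ush1c by 120 bases (Gm9860), or 3.12% of the exon length of Ush1c. Summed over the 12 libraries, Usp37 had 24323, Sytl3 1892 and Gm9860 2424 counts.

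The stretches upstream of 4 of the genes are shown because their transcripts carry the results: Vil1, the most abundant of the genes per length in both tissues; Ezr, which rose most in LI monolayers; and Cdhr2 and Cdhr5, the protocadherins that bind each other and whose transcripts parted in LI monolayers. Each runs 5′ to 3′ on the strand of the gene over the 250 bases before the RefSeq start site (GRCm38.p6). Capitals mark motif matches in Vil1, Cdhr2 and Cdhr5 and each CG in Ezr.
Vil1 (chr1:74409134-74409383, plus): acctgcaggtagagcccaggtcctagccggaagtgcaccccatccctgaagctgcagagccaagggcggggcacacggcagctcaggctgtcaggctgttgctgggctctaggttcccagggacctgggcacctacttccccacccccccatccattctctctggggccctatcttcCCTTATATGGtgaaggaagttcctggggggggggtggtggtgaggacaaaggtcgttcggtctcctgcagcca
Cdhr2 (chr13:54701213-54701462, plus): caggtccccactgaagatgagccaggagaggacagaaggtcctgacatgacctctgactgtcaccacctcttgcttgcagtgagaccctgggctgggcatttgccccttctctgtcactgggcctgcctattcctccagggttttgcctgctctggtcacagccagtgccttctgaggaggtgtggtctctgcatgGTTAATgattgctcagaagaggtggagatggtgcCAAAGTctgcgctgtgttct
Cdhr5 (chr7:141276787-141277036, minus): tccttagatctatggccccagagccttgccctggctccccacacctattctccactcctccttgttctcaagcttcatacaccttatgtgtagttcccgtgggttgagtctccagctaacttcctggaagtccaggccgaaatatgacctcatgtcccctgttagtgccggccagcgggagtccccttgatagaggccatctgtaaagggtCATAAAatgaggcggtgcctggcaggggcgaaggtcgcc
Ezr (chr17:6782781-6783030, minus): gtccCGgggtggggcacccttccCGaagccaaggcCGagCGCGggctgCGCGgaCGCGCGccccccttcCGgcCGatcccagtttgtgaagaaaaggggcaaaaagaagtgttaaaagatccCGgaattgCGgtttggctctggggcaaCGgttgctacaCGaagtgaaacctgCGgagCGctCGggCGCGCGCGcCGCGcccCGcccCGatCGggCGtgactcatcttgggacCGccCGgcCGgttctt

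RefSeq windows were matched for 8 of the 10 genes, and Eps8 and Myo7b had none. The search covered both strands of each window. A CArG box, the motif named for serum response factor, which reads alike on either strand, lay 73 to 64 bases before the start of Vil1, and 1.47% of all 32851 windows of this length hold a match. Cdhr2 held the letters GTTAAT, of the HNF1 motif, 54 to 49 bases before its start, and 6.43% of all windows hold them. It also held the letters CAAAGT, of the HNF4 motif, 20 to 15 bases before its start, against 12.6% of all windows. Cdhr5 held TTTATG, of the CDX2 motif, on the reverse strand (hence CATAAA as printed) 39 to 34 bases before its start, as did the window of 1 of the 3 Espn start sites at 196 to 191 bases, against 10.8% of windows. The TATA box letters TATAAA, found in 12.4% of windows, were in none of the windows of the 8 genes. The Ezr window held 32 CG, and 95.4% of windows held fewer (median 6), whereas Cdhr2 and Myo1a held 1 each and Cdhr5 held 7. No motif of this search overlapped another. These matches describe letters and were not tested for binding.

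Compared per kilobase of exon, Vil1 led in both tissues and Ezr led in both monolayers. In SI tissue the order ran from Vil1 with 45062 normalized counts per kilobase over Myo1a (27313), Cdhr5 (20945), Ezr (18253), Cdhr2 (15845) and Pls1 (14150) to Ush1c (5357), Myo7b (4013), Espn (1791) and Eps8 (1081), and the ranges of neighbours from Myo1a to Pls1 overlapped. In SI monolayers it ran from Ezr (31253) over Vil1 (24682), Cdhr5 (15456), Myo1a (11285), Pls1 (9111), Cdhr2 (8922), Ush1c (2705), Myo7b (2650) and Eps8 (1754) to Espn (462), with overlap between Pls1 and Cdhr2 and between Ush1c and Myo7b. LI tissue was led by Vil1 (19407) and Ezr (18248), which overlapped, followed by Cdhr5 (15041), Myo1a (12921), Cdhr2 (7559), Pls1 (5948), Ush1c (4359) and Myo7b (1812), and by Eps8 (1061) and Espn (939), which overlapped. LI monolayers had the widest span of levels per kilobase, from Ezr (74948) over Cdhr2 (21382), Vil1 (18107), Cdhr5 (15097), Pls1 (8982), Myo1a (5366), Eps8 (3261), Myo7b (2535) and Ush1c (2045) to Espn (64.1), with no overlap between neighbours. The exon lengths behind these levels merge all transcripts of a gene, which weighs most on Eps8 (12355 bases) and Espn (8272 bases). The length of the main transcript was chosen as an alternative after the data were seen. Over it, Eps8 stood at 4745 per kilobase in SI monolayers (rank 7 in place of 9) and at 8821 in LI monolayers (rank 6 in place of 7). Espn stood at 4349 in SI tissue (rank 8 in place of 9), and Cdhr5 at 19314 in LI tissue (rank 2 in place of 3).

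**Figure D1:**
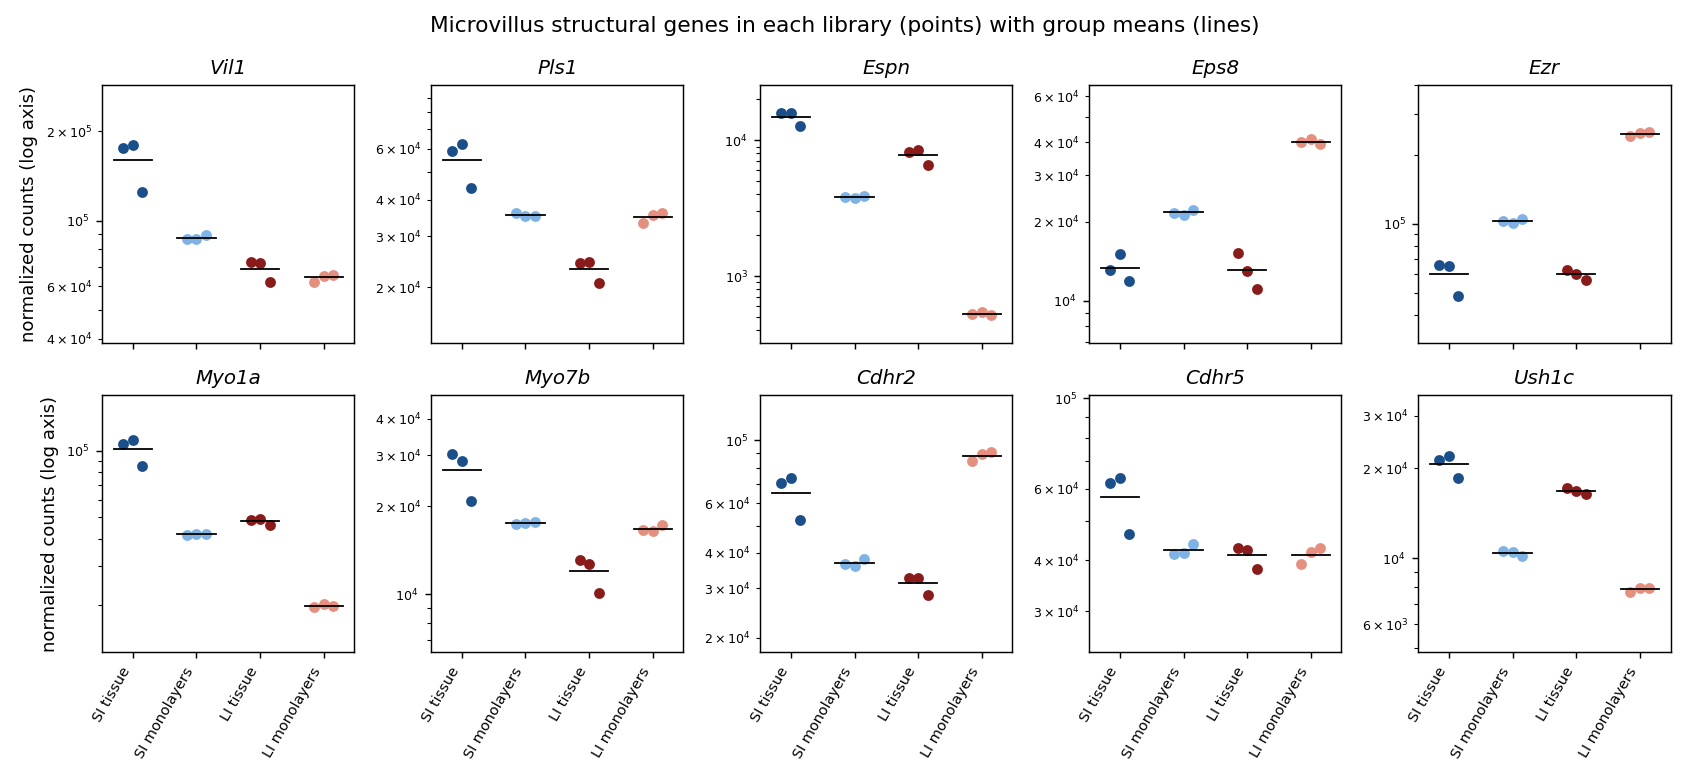
Normalized counts of each of the 10 genes (log axis, each panel with its own range) in every library, with points for libraries 1 to 3 from left to right and lines for group means. Eps8 and Ezr stand highest in LI monolayers, Espn and Myo1a stand lowest there, and library 3 is the lowest point of each tissue group.

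The share of each gene in the summed level per kilobase of the 10 showed how the make-up differed. Ezr took 11.9% ± 0.20 (SD, n = 3) of the sum in SI tissue, 20.9% ± 0.48 in LI tissue, 28.9% ± 0.23 in SI monolayers and 49.4% ± 0.20 in LI monolayers. Vil1 went the other way, with 29.2% ± 0.81 in SI tissue, 22.2% ± 0.45 in LI tissue, 22.8% ± 0.12 in SI monolayers and 11.9% ± 0.029 in LI monolayers. Myo1a held 17.8% ± 0.59 in SI tissue and 3.54% ± 0.072 in LI monolayers. The share of Cdhr5 lay between 9.94% and 17.2% as a group mean and that of Cdhr2 between 8.24% and 14.1%. The SD given does not cover the choice of length. Without length, Ezr took 44.0% of the sum in LI monolayers and 10.4% in SI tissue. Over the main transcripts it took 46.2% and 10.8%. Shares must sum to the whole, so a rise of Ezr lowers the summed share of the others, though not each of them. Between LI tissue and LI monolayers the share of Cdhr2 rose from 8.65% to 14.1% and that of Eps8 from 1.21% to 2.15%. The shares of the remaining genes were lower in LI monolayers.

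**Figure D2:**
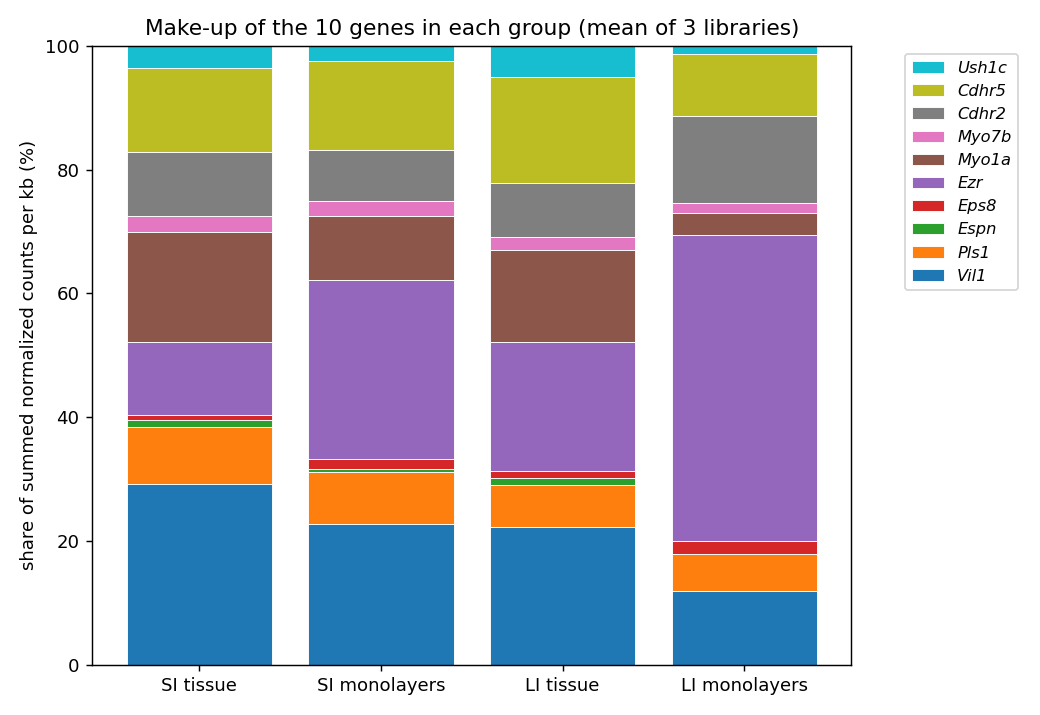
Share (%) of each of the 10 genes in their summed normalized counts per kilobase of exon, as stacked bars of the mean of 3 libraries per group. Ezr fills 49.4% of the bar of LI monolayers and 11.9% of that of SI tissue.

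The actin bundlers Vil1, Pls1 and Espn parted in culture. Vil1 encodes villin, which bundles actin and, at high calcium, severs it. Its normalized counts were 175996, 179303 and 124741 in SI tissue and 86749, 86730 and 89458 in SI monolayers. In LI tissue they were 72421, 72008 and 62318, and LI monolayers had 62062, 65119 and 65709. Every SI tissue library stood above all other libraries, whereas LI tissue and LI monolayers overlapped. Vil1 was 1.78-fold lower in SI monolayers than in SI tissue (log2 fold change -0.83 ± 0.11 SE, edgeR adjusted p = 1.92e-05), which is short of the log2 fold change of 1 required beside an adjusted p under 0.05 for a call. In LI the log2 fold change was -0.05 ± 0.11 (edgeR adjusted p = 0.675). In these bulk libraries fewer cells of a type and less RNA per cell cannot be told apart.

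Pls1 encodes plastin 1, also named fimbrin, a bundler of the microvillus core. SI tissue held 59121, 62147 and 43869 normalized counts and SI monolayers 36018, 35214 and 35093. LI tissue held 24266, 24483 and 20669 and LI monolayers 33247, 35445 and 36129. Culture thus set Pls1 lower in every SI library and higher in every LI library, and the monolayers of both regions overlapped. The log2 fold change was -0.60 ± 0.10 in SI (edgeR adjusted p = 0.000181) and 0.64 ± 0.10 in LI (adjusted p = 7.64e-05). The difference between these effects, -1.24 ± 0.14 on the log2 scale, passed the threshold of a call (edgeR adjusted p = 1.15e-05).

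Espn encodes espin, a bundler whose level sets the length of actin protrusions in other cells. Normalized counts were 15799, 15978 and 12662 in SI tissue and 3854, 3747 and 3875 in SI monolayers. LI tissue had 8252, 8421 and 6621, and LI monolayers had 524, 547 and 519. The groups did not overlap in any comparison, and LI monolayers lay far below the rest. Espn fell 3.78-fold in SI culture (log2 fold change -1.92 ± 0.09, edgeR adjusted p = 2.19e-10) and 14.2-fold in LI culture (log2 fold change -3.83 ± 0.10, adjusted p = 1.73e-13). The fall in LI exceeded that in SI by 1.91 ± 0.13 on the log2 scale (edgeR adjusted p = 3.12e-08).

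Eps8, which caps actin filaments at the microvillus tip, moved opposite to Espn. Its normalized counts were 13104, 15100 and 11861 in SI tissue and 21631, 21266 and 22114 in SI monolayers. In LI tissue they were 15255, 12957 and 11100, and in LI monolayers 40047, 41381 and 39424. The tissues of both regions overlapped, and every monolayer library was higher than every tissue library. Eps8 rose 3.18-fold in LI culture (log2 fold change 1.67 ± 0.10, edgeR adjusted p = 1.51e-09) and stood 1.66-fold higher in SI culture (log2 fold change 0.73 ± 0.10, adjusted p = 1.28e-05), short of a call. The difference between the culture effects was -0.93 ± 0.13 (edgeR adjusted p = 6.44e-05) and so just short of a call, which it passed without SI tissue library 3 (-1.008) or LI tissue library 1 (-1.05).

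Ezr and Myo1a both link membrane to actin, and culture moved them in opposite directions. Ezr encodes ezrin, of the ezrin, radixin and moesin family, which binds membrane proteins at its head and actin at its tail. Normalized counts of Ezr were 66086, 65585 and 48487 in SI tissue, and 103092, 100572 and 104800 in SI monolayers. They were 62847, 60425 and 56834 in LI tissue, and 239768, 248736 and 251238 in LI monolayers. Tissue of SI and LI overlapped, and all LI monolayer libraries exceeded all SI monolayer libraries. Ezr rose 4.24-fold in LI culture (log2 fold change 2.08 ± 0.09, edgeR adjusted p = 2.08e-11) and was 1.75-fold higher in SI culture (0.81 ± 0.09, adjusted p = 1.20e-06). The culture effects differed by -1.27 ± 0.12 (edgeR adjusted p = 9.63e-07), and between the tissues the log2 fold change was 0.04 ± 0.09 (adjusted p = 0.729).

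Myo1a encodes the monomeric myosin that forms the lateral bridges between core and membrane. SI tissue had 107111, 111944 and 85268 normalized counts, and SI monolayers had 41702, 41953 and 42083. LI tissue had 48487, 49143 and 46337, and LI monolayers had 19619, 20264 and 19907. No groups overlapped, and SI was above LI in tissue and in monolayers. Myo1a fell 2.36-fold in SI culture (log2 fold change -1.24 ± 0.07, edgeR adjusted p = 6.38e-10) and 2.33-fold in LI culture (-1.22 ± 0.07, adjusted p = 3.40e-10). The difference between these effects was -0.02 ± 0.10 (edgeR adjusted p = 0.910), and its sign depended on the scaling and on single libraries. Myo1a was also higher in SI than in LI by 1.12 ± 0.07 in tissue and by 1.10 ± 0.07 in monolayers on the log2 scale.

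**Figure D3:**
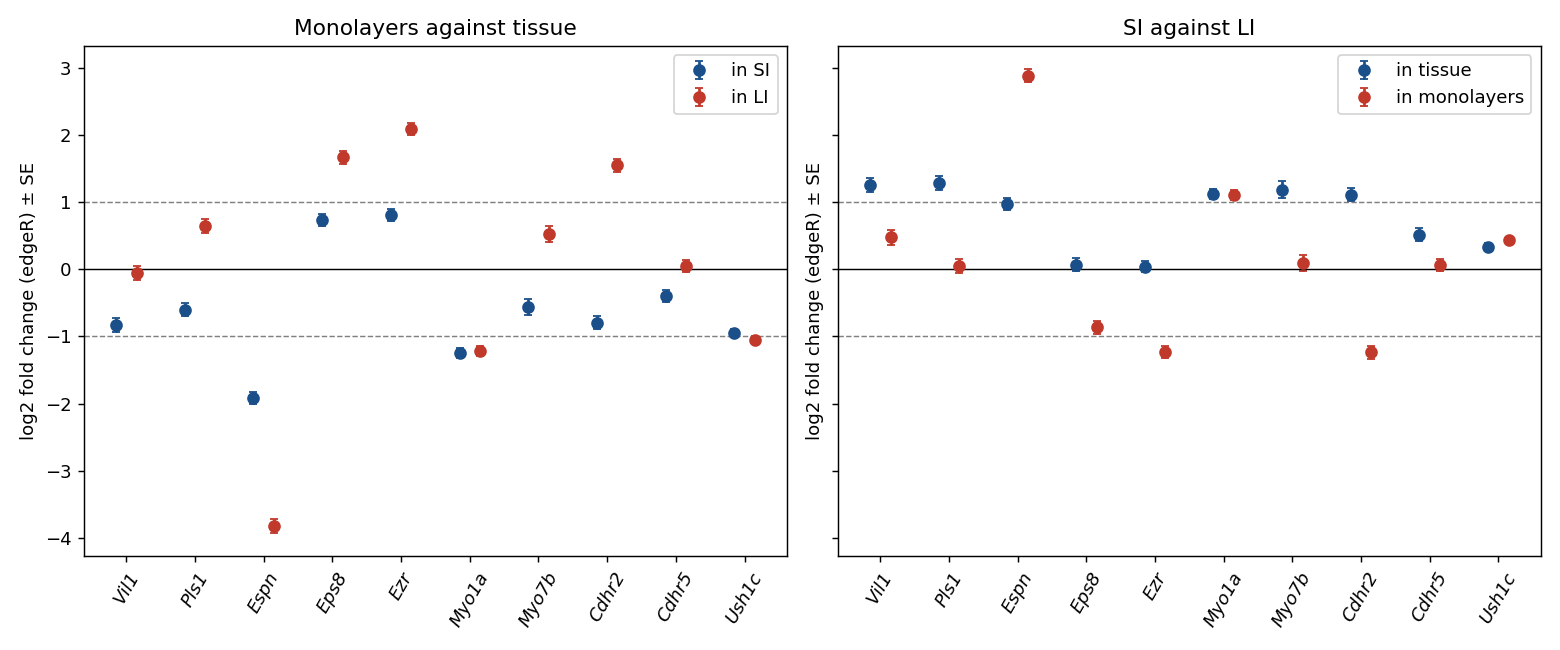
Log2 fold changes from edgeR (points, with bars of ± 1 SE derived from the F value of the test) of the 10 genes. Monolayers against tissue are on the left and SI against LI on the right, with dashed lines at -1 and 1. Culture effects in SI and LI lie together for Myo1a and Ush1c and farthest apart for Cdhr2 and Espn.

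The 4 genes of the intermicrovillar adhesion complex did not move together. Cdhr2, the larger protocadherin of the pair, had 70440, 73441 and 52392 normalized counts in SI tissue and 36498, 36009 and 38012 in SI monolayers. LI tissue had 32469, 32724 and 28435, and LI monolayers had 84874, 89311 and 90676. LI monolayers thus held the highest levels and LI tissue the lowest of Cdhr2. It rose 2.92-fold in LI culture (log2 fold change 1.55 ± 0.10, edgeR adjusted p = 3.63e-09) and was 1.73-fold lower in SI culture (-0.79 ± 0.10, adjusted p = 6.53e-06). The culture effects differed by -2.34 ± 0.14 (edgeR adjusted p = 1.11e-08). In tissue Cdhr2 was higher in SI by 1.11 ± 0.10 and in monolayers it was lower in SI by -1.23 ± 0.10 on the log2 scale, and both passed the threshold of a call (edgeR adjusted p = 2.93e-07 and 1.07e-07).

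Cdhr5, the partner of Cdhr2, had with Vil1 the smallest log2 fold changes of the 10 genes in LI culture. Normalized counts were 61828, 63771 and 46503 in SI tissue and 41456, 41717 and 43832 in SI monolayers. They were 43014, 42530 and 38044 in LI tissue and 39294, 41904 and 42851 in LI monolayers. Only SI tissue stood clear of the other groups. Cdhr5 was 1.32-fold lower in SI culture (log2 fold change -0.40 ± 0.09, edgeR adjusted p = 0.00143), and in LI culture the log2 fold change was 0.05 ± 0.09 (adjusted p = 0.631), with a sign that changed under upper quartile scaling. The difference between the culture effects was -0.45 ± 0.13 (edgeR adjusted p = 0.00956).

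Since Cdhr2 and Cdhr5 bind each other, their ratio per kilobase of exon was also taken, a pair chosen after the values were seen. It was 0.756 ± 0.0083 (SD, n = 3) in SI tissue, 0.577 ± 0.0060 in SI monolayers and 0.502 ± 0.0074 in LI tissue. In LI monolayers it was 1.42 ± 0.015, the only group with more Cdhr2 than Cdhr5 per length. The size of this ratio depends on the length used for Cdhr5. Over the main transcripts, LI monolayers had 21382 normalized counts per kilobase of Cdhr2 and 19386 of Cdhr5, which are closer to each other. SI tissue library 3, with a ratio of 0.747, lay beside libraries 1 and 2 (0.756 and 0.764) in this measure.

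Myo7b, the motor that carries the complex to the tips, had 30157, 28646 and 20906 normalized counts in SI tissue and 17423, 17544 and 17672 in SI monolayers. LI tissue had 13152, 12729 and 10117, and LI monolayers had 16616, 16478 and 17250. Like Pls1, it was lower in SI culture and higher in LI culture without overlap, and the monolayers of both regions lay close to each other. The log2 fold changes were -0.56 ± 0.12 (edgeR adjusted p = 0.00166) in SI and 0.53 ± 0.12 (adjusted p = 0.00203) in LI. They differed by -1.09 ± 0.17 (edgeR adjusted p = 0.000263), a call that stood at the edge of the fold minimum: it was lost, at -0.96 to -0.9997, in 8 of the 12 fits that left out 1 library, which were those without SI tissue library 1, any SI monolayer library, LI tissue library 3 or any LI monolayer library.

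Ush1c, the scaffold harmonin to which the cadherins and Myo7b bind, had 21293, 22043 and 18524 normalized counts in SI tissue and 10532, 10513 and 10195 in SI monolayers. LI tissue had 17156, 16804 and 16377, and LI monolayers had 7731, 7925 and 7961. Both monolayers lay below both tissues without overlap. Ush1c fell 2.06-fold in LI culture (log2 fold change -1.05 ± 0.06, edgeR adjusted p = 6.70e-11) and was 1.93-fold lower in SI culture (-0.95 ± 0.06, adjusted p = 4.88e-10), where it passed the fold minimum without SI tissue library 3 (-1.02). The culture effects differed by 0.10 ± 0.08 (edgeR adjusted p = 0.347). The ratio of Cdhr2 to Ush1c per kilobase, also chosen after the values were seen, was 2.94 ± 0.26 in SI tissue, 1.73 ± 0.10 in LI tissue, 3.30 ± 0.15 in SI monolayers and 10.5 ± 0.20 in LI monolayers.

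The remaining partners of the complex are Anks4b, which joins Ush1c to Myo7b, and Calml4, a light chain of Myo7b. Calml4 had 14321 ± 894 normalized counts (mean ± SD, n = 3) in SI tissue, 10351 ± 512 in LI tissue, 5996 ± 87 in SI monolayers and 4574 ± 92 in LI monolayers. It fell in both cultures, by -1.22 ± 0.06 in SI (edgeR adjusted p = 2.51e-11) and -1.13 ± 0.06 in LI (adjusted p = 2.24e-11) on the log2 scale. Anks4b had 9758 ± 1198 in SI tissue, 6565 ± 279 in LI tissue, 7003 ± 54 in SI monolayers and 5614 ± 85 in LI monolayers. In SI culture this was a log2 fold change of -0.44 ± 0.07 (edgeR adjusted p = 3.46e-05) and in LI culture of -0.18 ± 0.07 (adjusted p = 0.0294), neither of them a call. Ush1c, Calml4 and Anks4b thus were lower in the monolayers of both regions, whereas Myo7b and Cdhr2 were lower in SI monolayers and higher in LI monolayers than in the tissue.

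The culture comparison in SI asked how the monolayers differed from freshly isolated crypts. Nothing states whether these tissue and monolayer libraries share mice. All 10 genes differed without overlap between SI monolayers and SI tissue, 8 lower and 2 higher (Eps8 and Ezr), where 66.4% of all tested genes had no overlap, and all 10 had an adjusted p under 0.05, where 59.6% of all genes did. With the fold minimum 2 of the 10 were called, Espn and Myo1a, both lower. Of the 19581 genes tested, 26.1% were called, 16.4% lower and 9.71% higher. Their share of calls was therefore near that of all genes. The median log2 fold change was -0.70 over the 10 and -0.05 over all tested genes. Over the same comparison 7 of 12 enterocyte markers fell (median log2 fold change -1.63), their summed level went from 16723 to 23774 CPM in SI tissue to 8204 to 8544 CPM in SI monolayers, and 8 of 8 immune markers fell (376.6 to 482.0 CPM in tissue, 12.97 to 14.7 CPM in monolayers). Of the markers of tuft cells, which bear prominent microvilli, 7 of 7 fell, from 254.6 to 330.0 CPM in sum to 29.9 to 32.5 CPM. The part of these cell populations in the members' values was not tested.

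In LI, culture called 6 of the 10 genes, against 38.0% of all tested genes (14.5% higher, 23.5% lower). The 3 that rose were Eps8, Ezr and Cdhr2, and the 3 that fell were Espn, Myo1a and Ush1c. Without overlap, and with an adjusted p under 0.05, were 8 of the 10, against 73.0% and 68.7% of all genes, with Vil1 and Cdhr5 as those that overlapped. The median log2 fold change was 0.29 over the 10 and -0.05 over all genes. Summed goblet markers went from 18088 to 22043 CPM in LI tissue to 1636 to 1800 CPM in LI monolayers, with 9 of 9 markers lower, and summed enterocyte markers from 1645 to 2263 CPM to 748 to 800 CPM, with 2 of 12 markers lower and 1 higher. Tuft markers fell in 7 of 7 cases, from 33.4 to 52.9 CPM in sum to 6.47 to 7.56 CPM, and 4 of the 7 were above 3 counts in every LI monolayer library. Mesenchymal markers summed to 46.0 to 68.1 CPM in LI tissue and 59.9 to 84.9 CPM in LI monolayers, with 2 of 8 higher and 2 lower. All 12 enterocyte and all 9 goblet markers were above 3 counts in every library of both groups. What share of the members' changes goes with these changes in the other cell types was not tested.

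**Figure D4:**
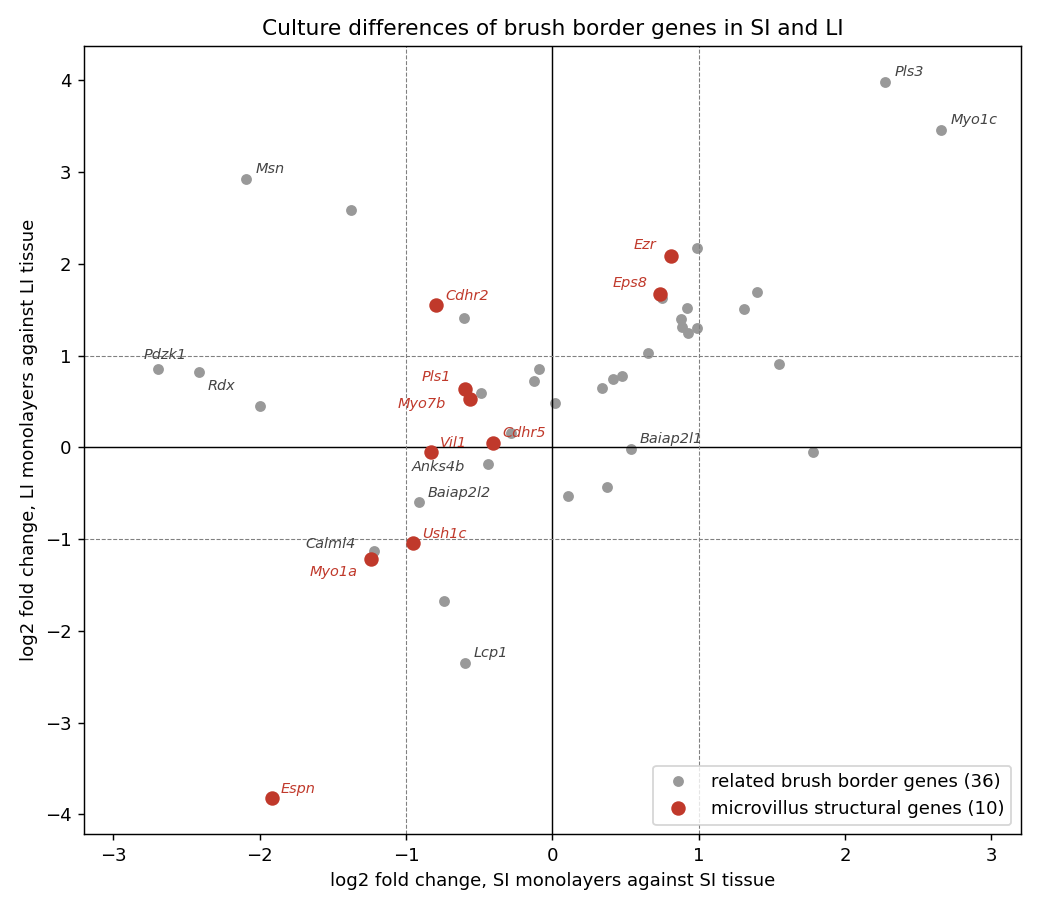
Log2 fold changes (edgeR) of monolayers against tissue in SI (horizontal) and LI (vertical) for the 10 microvillus genes (red) and 36 related brush border genes (grey, named where the text describes them), with dashed lines at -1 and 1. Espn, Myo1a and Ush1c sit at the lower left, Ezr and Eps8 at the upper right, and Cdhr2 at the upper left with Msn.

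Between the freshly isolated crypts, 5 of the 10 microvillus genes were called, all of them higher in SI tissue than in LI tissue, against 22.7% of all tested genes called (11.6% higher, 11.1% lower). The called genes were Vil1 (2.39-fold, edgeR adjusted p = 5.53e-07), Pls1 (2.45-fold, adjusted p = 1.67e-07), Myo1a (2.17-fold, adjusted p = 2.73e-09), Myo7b (2.28-fold, adjusted p = 5.60e-06) and Cdhr2 (2.16-fold, adjusted p = 2.93e-07). Espn was 1.96-fold higher (log2 fold change 0.97 ± 0.09, edgeR adjusted p = 3.33e-07), and it passed the fold minimum without SI tissue library 3 (1.07), LI tissue library 1 (1.009) or LI tissue library 2 (1.03). Cdhr5 (1.43-fold) and Ush1c (1.26-fold) were higher by less, with edgeR adjusted p of 0.000212 and 7.33e-05, and Eps8 and Ezr overlapped between the tissues, with log2 fold changes of 0.07 and 0.04 (adjusted p = 0.580 and 0.729) whose sign changed under upper quartile scaling and in 8 of the 12 fits that left out 1 library. An adjusted p under 0.05 was thus found for 8 of the 10 and groups without overlap for 8, against 53.9% and 58.6% of all genes. The median log2 fold change was 1.04 over the 10 and 0.06 over all genes. Enterocyte markers summed to 16723 to 23774 CPM in SI tissue and 1645 to 2263 CPM in LI tissue, with 11 of 12 higher in SI, and goblet markers to 5860 to 10824 CPM and 18088 to 22043 CPM, with 6 of 9 lower in SI. Higher in SI were also 7 of 7 Paneth and 6 of 7 tuft markers. The part of these cell types in the difference was not tested. LI crypts alone were released with an enzymatic digestion, so region and isolation cannot be told apart.

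Between the monolayers, calls were found on both sides. Of the 10, 4 were called, against 21.2% of all tested genes (12.4% higher, 8.88% lower in SI). An adjusted p under 0.05 was found for 7 and no overlap for 8, against 51.8% and 62.4% of all genes. Espn (7.36-fold, edgeR adjusted p = 9.50e-12) and Myo1a (2.15-fold, adjusted p = 3.63e-09) were higher in SI monolayers, and Ezr (2.35-fold, adjusted p = 1.89e-08) and Cdhr2 (2.35-fold, adjusted p = 1.07e-07) were higher in LI monolayers. Eps8 was 1.82-fold higher in LI monolayers, and Vil1 (1.39-fold) and Ush1c (1.35-fold) were higher in SI monolayers, all short of a call (edgeR adjusted p = 3.38e-06, 0.00224 and 6.26e-06). For Pls1, Myo7b and Cdhr5 the log2 fold changes were 0.05 ± 0.10, 0.09 ± 0.12 and 0.06 ± 0.09 (edgeR adjusted p = 0.722, 0.560 and 0.601). The median log2 fold change was 0.08 over the 10 and 0.02 over all genes. In the same comparison 11 of 12 enterocyte, 7 of 7 Paneth, 6 of 7 stem and 6 of 7 tuft markers were higher in SI monolayers. Of 9 goblet markers 5 were higher there and 1 lower. Goblet sums were 5231 to 5379 CPM in SI monolayers and 1636 to 1800 CPM in LI monolayers. From staining for the Muc2 protein, the study reports the opposite order, with goblet cells a larger part of LI monolayers. RNA sums and stained cells are unlike measures, and the reason for the difference was not tested. Of 8 immune markers 5 were higher and 1 lower in SI monolayers, and of 7 enteroendocrine markers 1 was higher and 3 lower. Of 8 mesenchymal markers 6 were lower there, with sums of 23.0 to 32.8 CPM in SI monolayers and 59.9 to 84.9 CPM in LI monolayers. The part of these markers' cell types in the members' values was not tested.

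The interaction of region and preparation tested for each gene whether culture acted differently in SI and LI. It called 5 of the 10 genes, against 20.0% of all tested genes (11.4% higher, 8.51% lower), and 8 had an adjusted p under 0.05, against 46.3%. The calls were Espn with a less negative culture effect in SI, and Pls1, Ezr, Myo7b and Cdhr2 with a lower culture effect in SI. The largest differences were those of Cdhr2 and Espn given above. For Vil1 the difference was -0.78 ± 0.15 (edgeR adjusted p = 0.000985), short of a call. The pairwise comparisons and the interaction share their libraries, so their values are not independent of each other.

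**Figure D5:**
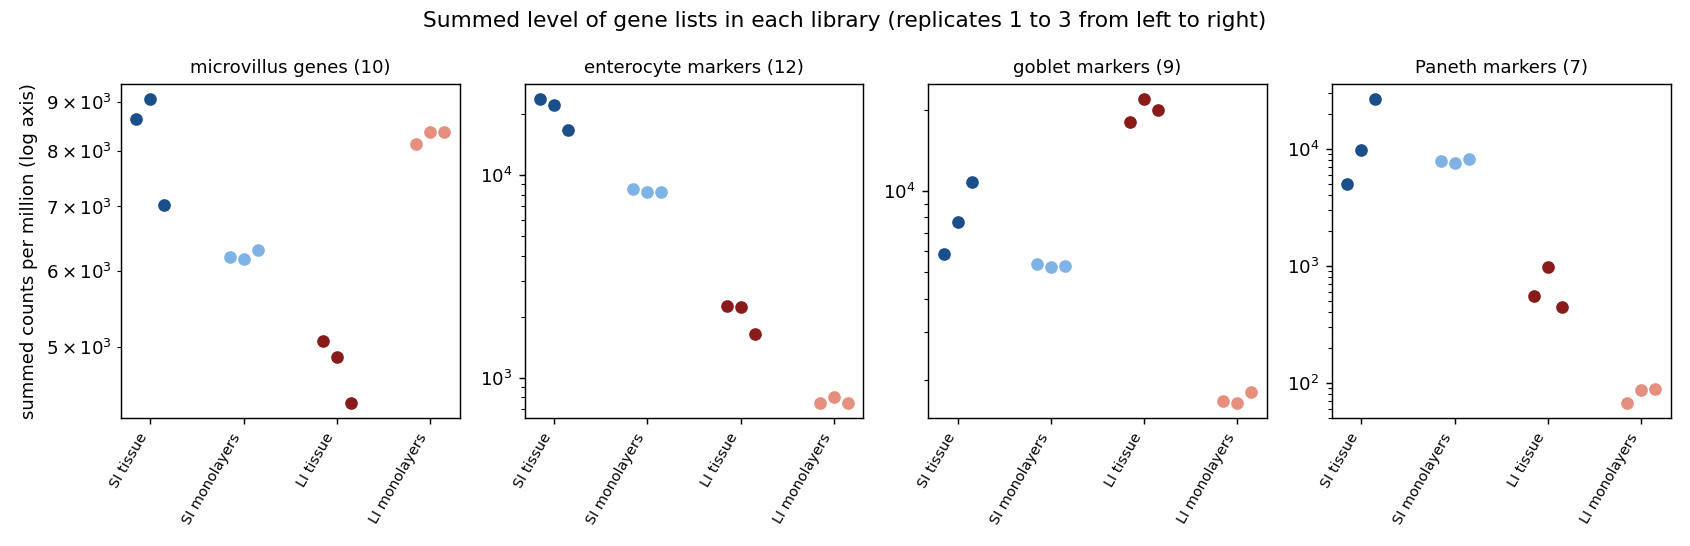
Summed CPM (log axis) of the 10 microvillus genes and of enterocyte, goblet and Paneth markers in each library, with libraries 1 to 3 from left to right in each group. LI monolayers (8142 to 8372 CPM) stand near SI tissue for the microvillus genes and lowest of all groups for the enterocyte markers (748 to 800 CPM).

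Summed over the 10 genes, SI tissue held 7027 to 9067 CPM, SI monolayers 6170 to 6306 CPM, LI tissue 4363 to 5072 CPM and LI monolayers 8142 to 8372 CPM. The high sum in LI monolayers came with Ezr at 246581 ± 6031 normalized counts of a summed 560851 ± 14957 for the 10 genes. The enterocyte markers did not order the groups in this way, since their sum was highest in SI tissue and lowest in LI monolayers. Stem cell markers, which label the crypt base, summed to 1306 to 1776 CPM in SI tissue and 258 to 290 CPM in LI tissue. They summed to 268 to 280 CPM in SI monolayers and 71.6 to 76.2 CPM in LI monolayers. All 7 were detected above 3 counts in every library of both tissues. Olfm4, which had the highest mean CPM of the 7 (318.7), weighs most in these sums, and it fell 67.9-fold in SI culture. Of the 7, 2 were called lower in SI culture and 5 in LI culture, against 16.4% and 23.5% of all tested genes. Mesenchymal markers summed to 19.2 to 42.3 CPM in SI tissue, 23.0 to 32.8 CPM in SI monolayers, 46.0 to 68.1 CPM in LI tissue and 59.9 to 84.9 CPM in LI monolayers.

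Around these genes, 36 further genes of the brush border, its terminal web and its membrane linkers were examined, and all 36 were tested. The list includes genes of the actin cytoskeleton in general, such as Actb, so its values do not describe the brush border alone. In SI culture 6 were called higher and 6 lower, or 33.3% against 26.1% of all tested genes, and in LI culture 15 were called higher and 3 lower, or 50% against 38.0%. The median log2 fold change of the 36 was 0.36 in SI and 0.84 in LI, where that of all tested genes was -0.05 in both. The 15 called higher in LI culture were Actb, Cobl, Pls3, Fscn1, Eps8l1, Eps8l3, Msn, Myo1c, Myo1d, Myo1e, Slk, Myh9, Myh10, Tpm1 and Tpm3. The 3 called lower were Calml4, Lcp1 and Slc9a3r2. In the terminal web, the myosin and spectrin layer beneath the microvilli, 4 of 8 genes rose in LI culture and 1 of 8 in SI culture (Tpm1). All genes called higher were 14.5% and 9.71%. The spectrin genes Sptan1 and Sptbn1 and the myosin gene Myh14 were called in neither culture. Among 12 linkers of membrane to actin, 5 rose and 1 fell in LI culture (all genes 14.5% higher and 23.5% lower), whereas 2 rose and 4 fell in SI culture (all genes 9.71% higher and 16.4% lower). Between the tissues 6 of the 36 were higher and 4 lower in SI, or 27.8% against 22.7% of all genes, with a median of 0.03 against 0.06. Between the monolayers 3 were higher and 6 lower in SI, or 25% against 21.2%, with a median of -0.43 against 0.02. These shares lie near those of all genes in SI culture, between the tissues and between the monolayers.

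Of the other plastins, Pls3 rose in both cultures and Lcp1 was lower in both. Pls3, a plastin of many tissues, had 562 ± 42 normalized counts in SI tissue and 2655 ± 11 in SI monolayers, and 1006 ± 34 in LI tissue and 15428 ± 320 in LI monolayers. It rose 4.84-fold in SI culture (log2 fold change 2.28 ± 0.06, edgeR adjusted p = 4.36e-14) and 15.8-fold in LI culture (3.98 ± 0.06, adjusted p = 9.34e-17). Lcp1, the plastin best known from white blood cells, had 3181 ± 244 in SI tissue, 1870 ± 59 in LI tissue, 2049 ± 63 in SI monolayers and 355 ± 22 in LI monolayers. In SI culture its log2 fold change of -0.60 ± 0.07 (edgeR adjusted p = 7.53e-07), short of a call, was near that of Pls1, whereas in LI culture it fell 5.09-fold (adjusted p = 1.01e-13) and Pls1 was higher. Immune markers fell beside Lcp1 in LI culture, from 32.2 to 44.9 CPM to 1.99 to 3.85 CPM in sum. They also fell in SI culture, from 376.6 to 482.0 CPM to 12.97 to 14.7 CPM. Their part in the levels of Lcp1 was not tested.

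The relatives of Ezr, Rdx (radixin) and Msn (moesin), went opposite ways in the cultures of SI and LI. Msn had 956 ± 282 normalized counts in SI tissue, 470 ± 120 in LI tissue, 218 ± 56 in SI monolayers and 3466 ± 69 in LI monolayers. It fell 4.27-fold in SI culture (edgeR adjusted p = 9.50e-05) and rose 7.62-fold in LI culture (adjusted p = 4.04e-06). Rdx had 393 ± 120 in SI tissue, 875 ± 333 in LI tissue, 71 ± 11 in SI monolayers and 1503 ± 11 in LI monolayers, fell 5.34-fold in SI culture (edgeR adjusted p = 0.000181) and had a log2 fold change of 0.83 ± 0.29 in LI culture (adjusted p = 0.0281), short of a call. Both were lower in SI monolayers than in LI monolayers, Msn by 15.6-fold (edgeR adjusted p = 1.36e-06) and Rdx by 20.6-fold (adjusted p = 2.86e-06). Of the mesenchymal markers, 6 of 8 were also lower in SI monolayers than in LI monolayers (23.0 to 32.8 against 59.9 to 84.9 CPM in sum), and their part in these differences was not tested. Between the tissues Rdx was 2.18-fold lower in SI (edgeR adjusted p = 0.0100), and it lost this call without SI tissue library 3 (-0.90), LI tissue library 1 (-0.95) or LI tissue library 3 (-0.96).

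Of the motors beside Myo1a, Myo1c, a myosin of the general plasma membrane, rose while Myo1a fell. Its normalized counts were 6786 ± 733 in SI tissue, 9523 ± 539 in LI tissue, 41809 ± 1069 in SI monolayers and 101724 ± 2799 in LI monolayers. That was a rise of 6.31-fold in SI culture (edgeR adjusted p = 5.87e-14) and 11.03-fold in LI culture (adjusted p = 1.66e-15). Each monolayer library lay above every tissue library for Myo1c and below the tissue of its own region for Myo1a.

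Pdzk1, a scaffold of brush border transporters, had 6999.6, 6555 and 4138 normalized counts in SI tissue and 889, 824 and 946 in SI monolayers. In LI tissue it had 43.2, 14.6 and 7.14, and in LI monolayers 26.0, 48.2 and 39.5, all far below SI. It was 282-fold higher in SI tissue than in LI tissue (edgeR adjusted p = 1.67e-07), a fold that rests on few counts in LI tissue: the log2 fold change was 8.14, and 7.72 to 9.10 with 1 library left out, highest without LI tissue library 1. Pdzk1 fell 6.49-fold in SI culture (adjusted p = 2.49e-05). The membrane-bending proteins Baiap2l2 and Baiap2l1 stood on opposite sides between the tissues. Baiap2l2 was 3.78-fold higher in SI tissue (17670 ± 2183 against 4800 ± 423 normalized counts, edgeR adjusted p = 7.86e-11), and Baiap2l1 was 2.04-fold lower there (5516 ± 413 against 11564 ± 488, adjusted p = 3.14e-10), a call lost without SI tissue library 1 (-0.99).

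Over the 12 libraries the 10 genes followed more than a single pattern. Pearson's r of log2 CPM between pairs of them ranged from -0.961 (Espn and Ezr) to 0.992 (Pls1 and Myo7b), with a median of 0.394 over 45 pairs, 13 pairs below 0 and 6 above 0.9. Eps8 and Ezr correlated at 0.989 and Espn and Myo1a at 0.952. The libraries come from 4 groups, so these values mostly describe group differences, and points share their library's depth and scaling. Against the mean profile of the 10 genes, r was 0.972 for Myo7b, 0.966 for Cdhr5, 0.964 for Pls1 and 0.931 for Vil1, and -0.125 for Eps8 and -0.146 for Ezr. Among all tested genes of at least 10 CPM outside the list, the 8 with the highest r with the mean profile were Ppp6r1 (0.984), Ncor1 (0.969), Sult2b1 (0.967), Slc35c2 (0.965), Pepd (0.962), Tbk1 (0.961), Tmem245 (0.958) and Pnpla6 (0.956), and all 8 were again among the 8 highest with DESeq2 size factors. None of the 36 related genes was among them.

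Ratios between members, chosen after the values were seen, differed by group. Ezr per kilobase stood at 0.407 ± 0.012 of Vil1 in SI tissue, 0.942 ± 0.040 in LI tissue, 1.27 ± 0.016 in SI monolayers and 4.14 ± 0.026 in LI monolayers. Myo1a stood at 1.502 ± 0.062 of Ezr in SI tissue, 0.709 ± 0.022 in LI tissue, 0.361 ± 0.0073 in SI monolayers and 0.0716 ± 0.0012 in LI monolayers. Pls1 stood at 0.315 ± 0.0073, 0.306 ± 0.0038, 0.369 ± 0.011 and 0.496 ± 0.0065 of Vil1 in SI tissue, LI tissue, SI monolayers and LI monolayers. Other ratios spread more within the tissues. Myo7b stood at 0.745 ± 0.084 of Ush1c in SI tissue, where library 3 had 0.656 against 0.823 and 0.755, at 0.415 ± 0.049 in LI tissue, 0.980 ± 0.025 in SI monolayers and 1.24 ± 0.027 in LI monolayers. Eps8 stood at 0.0243 ± 0.0030 of Vil1 in SI tissue and 0.180 ± 0.0068 in LI monolayers.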

How the data were processed

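RNA was sequenced from 12 libraries in 4 groups of 3, assigned from their labels. The authors mapped the read pairs to GRCm38 with STAR 2.7.9a, assigned them to GENCODE genes with featureCounts 2.0.2 and deposited the raw counts, which are whole numbers. The authors also deposited a normalized signal, in which the counts of a library are divided by its DESeq2 (given as version 3.13) size factor (0.850 to 1.12) and carry no log transform. The text calls this signal normalized counts. All columns were mapped to a library.

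Of the 55487 genes, 55141 were named and 55227 given an exon length from GENCODE vM21 on GRCm38, an earlier release than the one used for counting. The raw counts were tested with edgeR 4.0.16 in R 4.3.3, using filterByExpr (19581 genes kept), TMM and a robust quasi-likelihood fit of the 4 group means. Benjamini-Hochberg adjustment ran over all genes of a comparison, and a call needed an adjusted p under 0.05 with a log2 fold change of 1 or more in either direction. The SE of a log2 fold change was not taken from the fit. It was derived as the absolute log2 fold change divided by the square root of the F value of its test. The 5 comparisons set monolayers against tissue within each region, SI against LI within each preparation, and the culture effects against each other (interaction). Summed CPM of gene lists were raw counts scaled to all counts of a library, without TMM. CPM of single genes were edgeR's, and correlations used log2 CPM of edgeR with a prior count of 2.

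A count of 0 allows up to 3 counts, or 0.0394 to 0.0508 CPM at these depths (counting error only). The fit was also run on simulated counts, in which a small set of genes changed in SI monolayers only, as many up as down, with a common spread. Changes as many and as uneven as in the real libraries were not simulated, so the scaling was not put to the test. The members and gene lists were chosen with earlier results of these data known. The related genes named are Anks4b, Calml4 and, per pairwise comparison, those called with at least 10 CPM that had the 2 highest and the 2 lowest log2 fold changes. Alternatives were DESeq2 1.42.0 (Wald test, or its size factors within edgeR), upper quartile scaling, other filters on low counts, no fold minimum, fits of only the groups compared, a replicate block, each library left out, and, added after seeing the data, halved counts and main transcript lengths. The study's other experiments were not analysed here.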

Additional observations from a re-analysis of the deposited data

Results flagged for a closer look

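The culture effect differed between SI and LI for 5 of the 10 microvillus genes, against 20.0% of all tested genes. This was by the test of the interaction itself (edgeR quasi-likelihood, Benjamini-Hochberg adjusted p under 0.05 and an absolute difference of at least 1 on the log2 scale). As culture effect in SI minus culture effect in LI, the log2 difference was -1.24 for Pls1, 1.91 for Espn, -1.27 for Ezr, -1.09 for Myo7b and -2.34 for Cdhr2. The call of Myo7b was lost in 8 of the 12 fits that left out 1 library. Pls1, Myo7b and Cdhr2 were lower in SI culture and higher in LI culture in every library, whereas Espn fell and Ezr was higher in both. Among the related genes that the text names, the difference was -1.71 for Pls3, 1.75 for Lcp1, -5.02 for Msn, -3.24 for Rdx and -3.55 for Pdzk1, that of Pdzk1 running from -4.51 (without LI tissue library 1) to -3.13 with 1 library left out. Groups of 3 libraries are too small for a test of single outlying libraries, and SI tissue library 3 is described from its marker levels and from the levels of the 10 genes.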

How the results depend on the processing

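The 22 called values of the 10 genes kept their direction in all 435 alternative fits and their call in 427. The other 8 fits all left out 1 library and concern Myo7b in the interaction. Without the fold minimum the numbers of the 10 genes past the test were 10 in SI culture, 8 in LI culture, 8 between tissues, 7 between monolayers and 8 in the interaction, and those of the 36 related genes were 32, 33, 30, 29 and 32 in the same order, where 59.6%, 68.7%, 53.9%, 51.8% and 46.3% of all genes passed. With at least 10 counts in every library Ush1c was called in SI culture (-1.02).

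Reversed signs were found only for values whose adjusted p was above 0.05 in each of these fits. With upper quartile scaling, which moved the median of all genes in LI culture from -0.05 to -0.17, they were Cdhr5 in LI culture (-0.068), Eps8 (-0.0099) and Ezr (-0.036) between tissues and Myo1a in the interaction (0.063). Without a filter they were Ezr between tissues (-0.019) and Myo1a in the interaction (0.013), with at least 10 counts Cdhr5 in LI culture (-0.028) and Ezr between tissues (-0.0038), and with only the groups compared Ezr between tissues (-0.026). Leaving out 1 library gave ranges across 0 for Cdhr5 (-0.049 to 0.076) and Baiap2l1 (-0.11 to 0.012) in LI culture, for Eps8 (-0.032 to 0.18) and Ezr (-0.040 to 0.17) between tissues, and for Myo1a (-0.12 to 0.099) and Calml4 (-0.12 to 0.038) in the interaction. Without LI tissue library 1, Pdzk1 (1.81) and Rdx (1.00015) were called in LI culture. The cause was not tested.

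DESeq2 and halved counts changed no call of the 10 genes. The study took SI and LI crypts for its cultures from the same mice, and nothing states whether libraries with the same number share a mouse. Deviations of same-numbered libraries over all genes correlated between -0.0516 and 0.0563, which meets no criterion for pairing them and does not show that no mouse was shared. The replicate block left the member calls at 2, 6, 5, 4 and 5 and gave 5017, 7367, 4383, 4083 and 3807 calls over all genes, where 5110, 7442, 4446, 4159 and 3909 were found without it (SI culture, LI culture, tissues, monolayers, interaction). With 3 libraries per group, small differences such as those of Cdhr5 and Vil1 in LI culture could not be told from 0.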
